A study of Mus musculus with 14 samples.

Results

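Neutrophil transcripts were followed in whole lungs of 6-day-old mice that lacked ataxin-1-like or ataxin-1. The genes were named from known biology, but with earlier results of these data known. They were granule proteins, secreted and cytosolic products, and surface receptors of neutrophils, grouped by the stage of maturation at which they are made. Of 39 such genes, 38 had a probe set among the 21212 on the arrays, found through the Entrez gene number. No probe set carried the number of Mrgpra2b. Mmp1a, an interstitial collagenase, stood on the list beside the granule proteins and is kept apart here.

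The 14 arrays formed 4 groups, all of C57BL/6J mice at postnatal day 6: 4 lungs labelled Atxn1L -/- (the gene is now written Atxn1l) with 4 WT controls, and 3 lungs labelled Atxn1 -/- with 3 WT controls. No group carried another allele or an agent. The mice came from heterozygous intercrosses. The design text speaks of pairs of mice, but pairs, litter and sex are not given for single arrays. Each array measured 100 ng of total RNA from 1 frozen lung sample, on Affymetrix mouse Gene ST version 1 arrays. Values are log2 levels after RMA, which corrects background, equalises the distributions of the arrays and combines the probes of a gene. RMA was run apart for the 8 arrays with Atxn1l knockouts and the 6 with Atxn1 knockouts, so every level is set only against arrays of its own set. A probe set's level also depends on its probes, so the levels of different genes are not ranked.

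Neutrophils mature in bone marrow and carry their weapons in granules that are filled in order. Promyelocytes make the serine proteases and myeloperoxidase of the primary, or azurophil, granules. Myelocytes and metamyelocytes then make lactoferrin, lipocalin-2 and cathelicidin for the secondary granules and gelatinase for the tertiary ones. Mature cells switch most granule genes off, carry receptors for chemokines and formylated peptides, and hold much S100A8 and S100A9 in the cytosol. In the lung, neutrophils lie in the capillaries and can enter the airspace. In whole-lung RNA, fewer cells of a type and less RNA per cell cannot be told apart.

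As a check of the tissue, the mean level of 12 lung epithelial and endothelial genes (Sftpc, Ager, Cldn5 and others) lay between 12.15 and 12.22 on the Atxn1l arrays and between 12.62 and 12.69 on the Atxn1 arrays. Atxn1l itself fell by 2.58 on the log2 scale in its knockouts (limma adjusted p = 1.18e-06). Atxn1 differed by 0.01 in the Atxn1 knockouts, so its probe set does not check that genotype. Whether its probes lie in the deleted part was not tested. Xist, the RNA that silences one X chromosome in female cells, was above 12 on the log2 scale on Atxn1l knockouts 2, 3 and 4, their wild types 3 and 4, Atxn1 knockouts 2 and 3, and Atxn1 wild type 3. It was at or below 7.04 on all others. Atxn1 wild type replicate 1 stood apart: leaving aside replicate 3, it was the highest array for 43.1% of all probe sets of its set.

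Neutrophil genes were highest on 1 array in each set, and these arrays were of opposite genotype. They were picked as the arrays with the highest mean over the members. The counts and excesses of members on them, and how differences move without them, are thus partly set by that choice. The first was Atxn1l knockout replicate 1, where the members averaged 9.70, against 8.25 to 8.72 on the other 7 arrays. The second was Atxn1 wild type replicate 3, with 10.16 against 8.99 to 9.28 on the other 5 arrays. Atxn1l knockout replicate 1 was the highest array of its set for 35 of 38 members, where 20.2% of all probe sets had their highest level. The exceptions were Prtn3, Gfi1 and Mmp1a. Atxn1 wild type replicate 3 was the highest for 27 of 38, against 12% of all probe sets, and each of those 27 was also highest on the other array, against 5.52% of all probe sets. Xist was low on Atxn1l knockout replicate 1 and high on Atxn1 wild type replicate 3. Each is also the only array of its Xist class in its group. With Atxn1l knockout 1 set aside, wild type 2 was the highest for 15 members (18.2% of all probe sets), knockout 3 for 9 (14.3%), knockout 2 for 8 (17.5%), knockout 4 for 4 (6.6%), wild type 3 for 2 (19%), and wild types 1 and 4 for none (13% and 11.4%). With Atxn1 wild type 3 set aside, knockout 3 was the highest for 16 members (14.2% of all probe sets), wild type 1 for 9, knockout 2 for 8 (13%), wild type 2 for 4 (17.6%) and knockout 1 for 1 (12.2%).

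**Figure D1:**
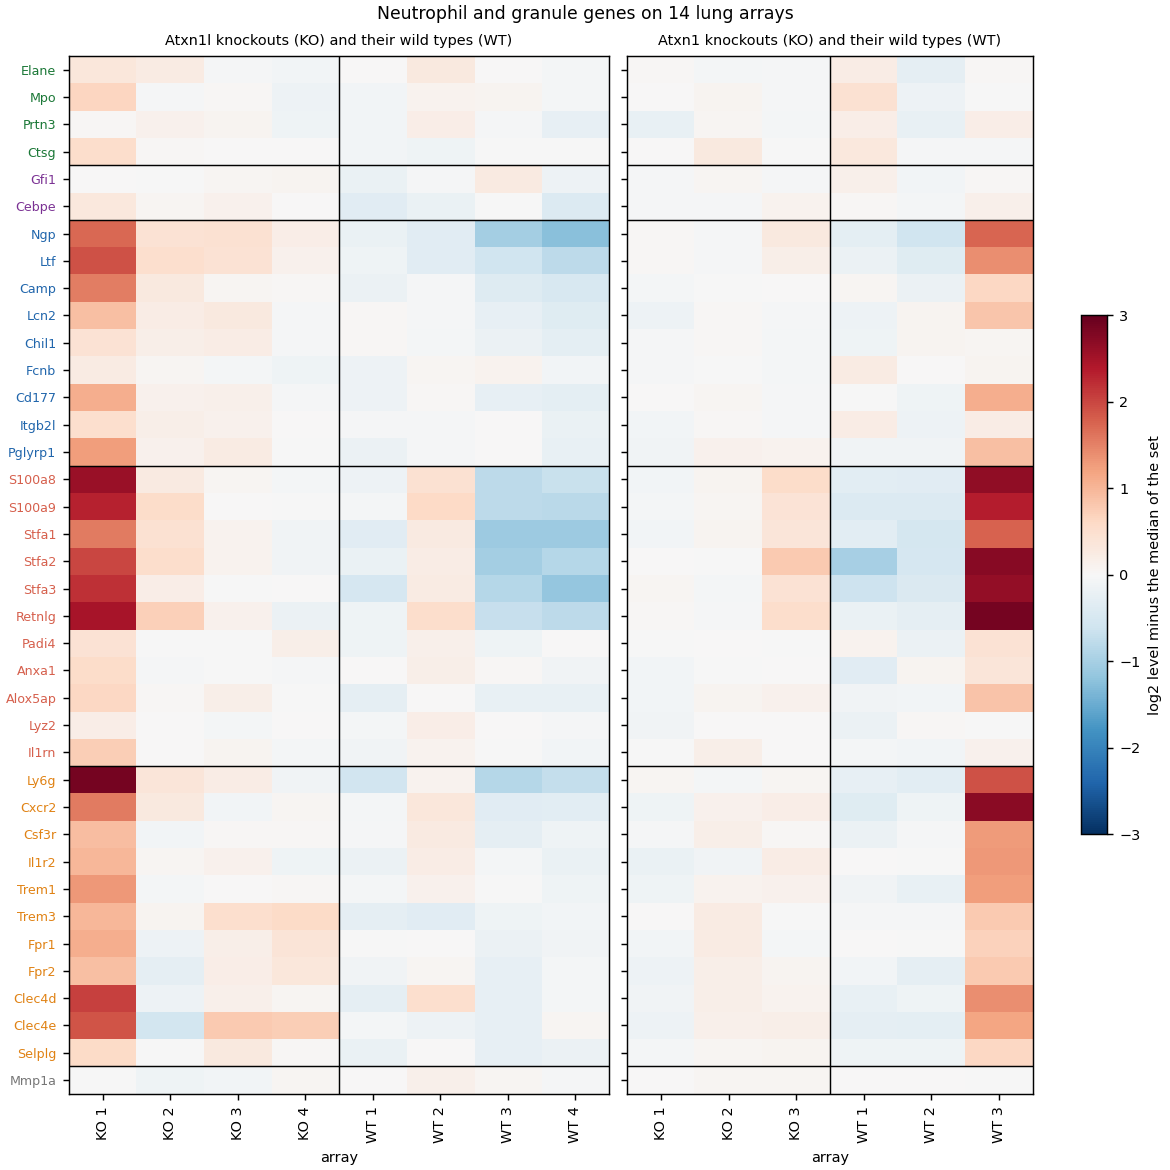
Log2 levels of the 38 members on 14 arrays, each gene shown as its level minus the median of its set (colour), with knockouts left and wild types right of the vertical line and gene names coloured by role. Atxn1l knockout 1 and Atxn1 wild type 3 are red from Ngp to Selplg for most genes, while Elane to Cebpe and Mmp1a stay pale.

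The size of this excess, taken as the level on that array minus the median of the other arrays of its set, differed between roles. Secreted and cytosolic products had a median excess of 1.67 on Atxn1l knockout 1 and 1.85 on Atxn1 wild type 3. Surface receptors had 1.11 and 1.31, and secondary and tertiary granule genes 1.13 and 0.85. Primary granule genes had 0.44 and 0.03, and the maturation factors Cebpe and Gfi1 0.18 and 0.11. An excess of 1 or more, a doubling of signal or above on the linear scale, was found on Atxn1l knockout 1 for 19 of 38 members, against 0.528% of all probe sets, and on Atxn1 wild type 3 for 16, against 0.325%. For 15 members it held on both, against 0.217% of all probe sets.

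Retnlg, a resistin-like protein of marrow and neutrophils, had 11.37 on Atxn1l knockout 1 and between 8.11 and 9.62 on the others of that set, and 11.98 on Atxn1 wild type 3 with 8.84 to 9.63 on the others. Ly6g, the surface antigen by which mouse neutrophils are sorted, stood 7.91-fold above the median of the other arrays on Atxn1l knockout 1 and 3.92-fold on Atxn1 wild type 3. Cxcr2, the receptor for neutrophil chemokines, was 3.06-fold and 7.21-fold above it. Over the 38 members, the excesses of these arrays had a Pearson r of 0.88 and a Spearman rho of 0.90. This is a description across genes that share cells, and over all probe sets r was 0.24.

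**Figure D2:**
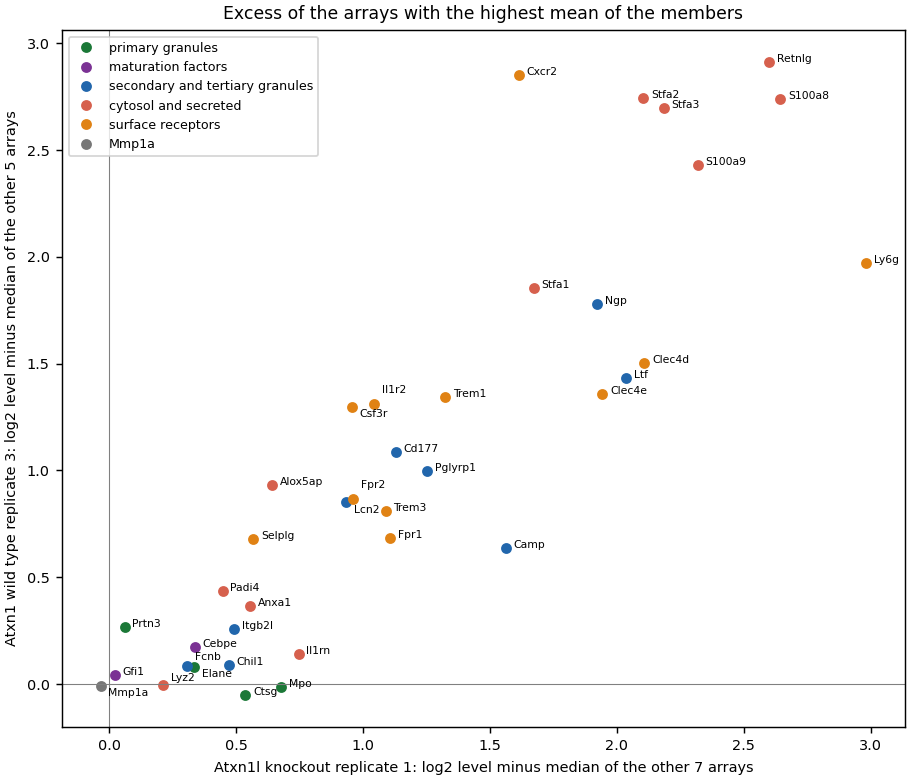
Excess of each member on Atxn1l knockout replicate 1 (horizontal) and on Atxn1 wild type replicate 3 (vertical), as log2 level minus the median of the other arrays of the set, coloured by role. Many secreted products and surface receptors lie toward the upper right, with Retnlg at 2.60 and 2.91. Others of the secreted and cytosolic role, such as Padi4, Anxa1, Il1rn and Lyz2, lie nearer the origin, with Lyz2 at 0.21 and -0.01. Mmp1a and the primary granule genes lie low on the vertical axis, with Prtn3 the highest of these at 0.26.

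The genes outside the list with the most similar excess were ranked by the smaller of their 2 excesses. Among all probe sets, members took 6 of the 10 highest ranks and 24 of the 100 highest, with S100a8 first. The arrays had been picked by the mean of the members, so high ranks of members were partly built in. The 10 leading genes that were not members were Wfdc17, Mmp8, Reg3g, Il1f9, Scgb3a1, Lrg1, Stfa2l1, Csta2, Mmp9 and Ifitm6. Wfdc17, a small secreted protein of the whey acidic protein family, had an excess of 2.56 and 2.76. Mmp8, the collagenase of neutrophil granules, had 2.29 and 2.63, and Mmp9, their gelatinase, 1.71 and 1.70. Stfa2l1 and Csta2 belong to the stefin cluster that also holds Stfa1, Stfa2 and Stfa3. Reg3g, an antibacterial lectin of epithelia, had 2.23 and 2.46. Scgb3a1, a secretoglobin of airway cells, had 1.85 and 2.21, but on Atxn1l arrays its level of 11.89 on knockout 1 lay below the 12.15 of another array.

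Promoters are shown for 5 members that stand for the contrast between roles: Ngp and Ltf of secondary granules, Ly6g of the surface, and Elane and Prtn3 of primary granules. They run from 250 bases before the gene start to 50 after it, 5′ to 3′ on the strand of the gene, from RefSeq in build GRCm38.p6. They lie at chr9:110419558-110419857, plus strand (Ngp), chr9:111019042-111019341, plus strand (Ltf), chr15:75155011-75155310, plus strand (the first of 2 Ly6g entries), chr10:79886062-79886361, plus strand (Elane), and chr10:79879417-79879716, plus strand (Prtn3). Capitals mark matches to TTGCNNAA, a core motif of C/EBP factors, or to GAGGAAGT, a motif of PU.1, on either strand.
Ngp: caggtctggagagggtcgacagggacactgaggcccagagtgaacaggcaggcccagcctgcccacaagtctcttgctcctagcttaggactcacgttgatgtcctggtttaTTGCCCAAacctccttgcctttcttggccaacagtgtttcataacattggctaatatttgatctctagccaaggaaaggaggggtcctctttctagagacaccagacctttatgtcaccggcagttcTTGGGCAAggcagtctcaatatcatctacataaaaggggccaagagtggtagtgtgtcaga
Ltf: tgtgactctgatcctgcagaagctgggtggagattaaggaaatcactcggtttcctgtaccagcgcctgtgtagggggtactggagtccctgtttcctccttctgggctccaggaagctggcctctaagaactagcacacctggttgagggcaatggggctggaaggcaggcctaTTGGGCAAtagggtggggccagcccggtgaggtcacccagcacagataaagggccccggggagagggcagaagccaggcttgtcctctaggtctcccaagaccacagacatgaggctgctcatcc
Ly6g: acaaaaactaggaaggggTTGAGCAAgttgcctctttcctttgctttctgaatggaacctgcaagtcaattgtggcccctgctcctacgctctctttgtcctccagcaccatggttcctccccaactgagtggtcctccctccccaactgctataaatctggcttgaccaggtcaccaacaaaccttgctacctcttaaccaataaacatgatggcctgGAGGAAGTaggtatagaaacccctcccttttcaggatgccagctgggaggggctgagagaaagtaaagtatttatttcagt
Elane: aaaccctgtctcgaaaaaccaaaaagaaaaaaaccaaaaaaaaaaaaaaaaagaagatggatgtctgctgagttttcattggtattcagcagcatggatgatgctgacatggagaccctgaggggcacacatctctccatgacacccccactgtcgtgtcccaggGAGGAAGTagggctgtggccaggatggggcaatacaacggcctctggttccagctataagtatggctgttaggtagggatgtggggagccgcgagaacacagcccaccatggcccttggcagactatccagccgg
Prtn3: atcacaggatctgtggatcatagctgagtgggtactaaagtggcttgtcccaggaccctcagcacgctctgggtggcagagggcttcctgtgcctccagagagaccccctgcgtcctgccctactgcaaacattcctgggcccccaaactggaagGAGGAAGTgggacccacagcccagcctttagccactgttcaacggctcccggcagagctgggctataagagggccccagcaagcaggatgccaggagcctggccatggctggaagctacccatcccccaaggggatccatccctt

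Of the 38 measured members, 34 had a promoter entry. Those without were Alox5ap, Cebpe, Selplg and Trem3. TTGCNNAA was found in 4 of 9 promoters of secondary and tertiary granule genes (Ngp, Ltf, Lcn2 and Fcnb) and in 0 of 4 of primary granule genes. Over all members it was in 11 of 38 entries, 28.9%, against 10.8% of all 32851 promoters of this length. GAGGAAGT was found in 3 of 4 primary granule promoters (Elane, Prtn3 and Mpo) and in 1 of 9 of the secondary and tertiary group (Itgb2l). Over all members it was in 18.4% of entries, against 3.2% of all promoters. In Ngp the C/EBP matches begin at -138 and -11 from the start, and in Ltf the match begins at -75. Elane and Prtn3, which are neighbouring genes, hold the PU.1 match at -85 and -95. In the Ly6g entry a C/EBP match begins at -232 and a PU.1 match at -31. No matches overlap in the promoters printed. A match describes letters only, and factor binding was not measured.

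In lungs without Atxn1l, none of the 38 members passed limma's test over all probe sets at an adjusted p under 0.05, which 0.0424% of all probe sets passed (9 of 21212). The smallest adjusted p was 0.251, for Trem3. At an unadjusted p under 0.05, 15 members were higher, against 4.54% of all probe sets, and none lower, against 3.95%. The log2 difference, knockout minus wild type, was above 0 in 37 of 38 members, against 51.3% of all probe sets, with a median of 0.38 against 0.00. The members move together on single arrays, so they are not separate observations. Without Atxn1l knockout replicate 1 the median was 0.22, with 32 of 38 above 0, against 51% of all probe sets. None then passed limma's test, which 0.0754% of all probe sets did, and 16 had an unadjusted p under 0.05 and a higher level, against 3.62%.

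In 7 members all 4 Atxn1l knockouts lay above all 4 wild types, as in 2.76% of all probe sets. They were Ngp, Ltf, Camp and Itgb2l of the secondary and tertiary granules, Cebpe, Ctsg and Trem3. None of the 11 secreted and cytosolic products was among them. No member had all knockouts below all wild types, against 2.56%. Setting Atxn1l knockout 1 aside could add no member to the 7, because it was the lowest knockout for none of the members. The 3.66% of all probe sets with that order is thus no like comparison. The opposite order was then found for no member, against 4.87% of all probe sets.

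Ngp, the neutrophilic granule protein related to cathelicidins, had 12.18, 10.90, 10.91 and 10.65 on Atxn1l knockouts 1 to 4 and 10.26, 10.11, 9.43 and 9.21 on their wild types. Its groups did not overlap, although knockout 1 stood well above the other knockouts and wild types 1 and 2 above wild types 3 and 4. The difference was 1.41 (SE 0.34, limma adjusted p = 0.318), a 2.65-fold higher mean, and 1.06 without knockout 1.

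Ltf, which encodes the iron-binding lactoferrin, had 10.65, 9.24, 9.17 and 8.87 in the knockouts and 8.62, 8.41, 8.15 and 7.96 in the wild types. Again every knockout exceeded every wild type. The difference was 1.20 (SE 0.33, limma adjusted p = 0.366), and 0.81 without knockout 1.

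Camp, the cathelicidin precursor, had 9.77, 8.53, 8.30 and 8.28 against 8.06, 8.21, 7.86 and 7.76, so the lowest knockout lay just above the highest wild type. Its difference of 0.75 (SE 0.29, limma adjusted p = 0.534) was 0.39 without knockout 1. Pglyrp1, a peptidoglycan recognition protein, had 10.48, 9.37, 9.47 and 9.23 against 9.06, 9.21, 9.24 and 9.02. Its groups overlapped narrowly, and the difference was 0.51, or 0.23 without knockout 1.

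The other secondary and tertiary granule genes had differences of at most 0.51. Lcn2, which binds bacterial siderophores, had 0.49 and Chil1, a chitinase-like protein, 0.33. Cd177, a surface partner of proteinase 3, had 0.51 and Itgb2l, an integrin beta chain, 0.27. Fcnb, a ficolin, had 0.06. Without Atxn1l knockout 1 these were 0.31, 0.25, 0.26, 0.17 and -0.02. Lcn2, Chil1 and Cd177 overlapped between the groups.

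Primary granule genes had smaller differences, with a median of 0.09. Elane, neutrophil elastase, had 7.20, 7.11, 6.82 and 6.78 in Atxn1l knockouts and 6.86, 7.16, 6.86 and 6.80 in wild types, with wholly overlapping groups and a difference of 0.05 (SE 0.11, limma adjusted p = 0.942). Mpo, myeloperoxidase, had 7.55 on knockout 1, 6.87, 6.96 and 6.76 on the other knockouts, and between 6.84 and 7.02 in wild types. Only knockout 1 was high, and without it the difference of 0.11 became -0.06. Ctsg, cathepsin G, had 6.64 on knockout 1, between 6.12 and 6.14 on the other knockouts and between 5.99 and 6.10 on wild types, a difference of 0.20, or 0.08 without knockout 1. Prtn3, proteinase 3, differed by 0.06 and its highest level in the set, 7.02, was on wild type 2.

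Of the factors that steer granulocyte maturation, Cebpe, which drives secondary granule genes, had 8.03, 7.77, 7.83 and 7.73 in Atxn1l knockouts and 7.38, 7.52, 7.69 and 7.29 in wild types. Its groups did not overlap, and the difference was 0.37 (SE 0.09, limma adjusted p = 0.333), with 0.30 without knockout 1. Gfi1, a repressor needed for granulocyte formation, had 7.84, 7.82, 7.90 and 7.92 against 7.64, 7.80, 8.09 and 7.68. Its highest level was on a wild type, and the difference was 0.07.

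**Figure D3:**
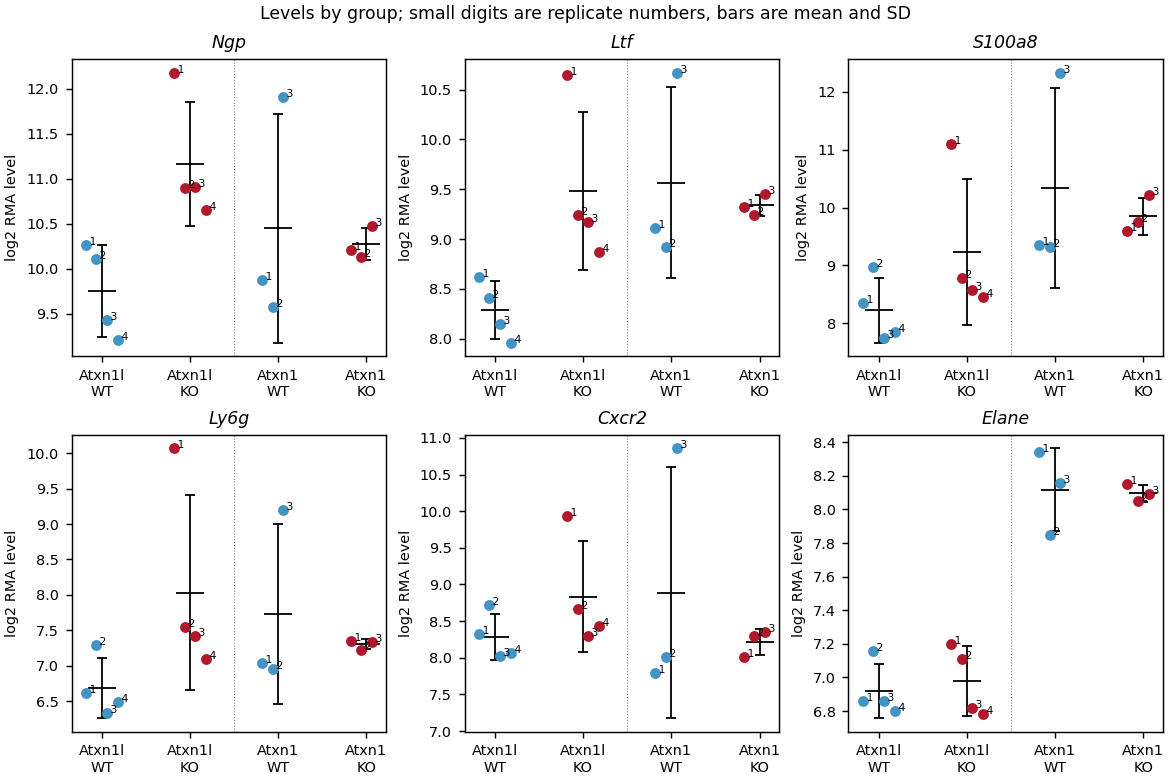
Log2 RMA level of 6 members by group, with one point per array, its replicate number beside it, and bars for mean and SD (n = 4 for Atxn1l groups, n = 3 for Atxn1 groups). Ngp and Ltf are above all wild types on all 4 Atxn1l knockouts, S100a8, Ly6g and Cxcr2 are highest on Atxn1l knockout 1 and Atxn1 wild type 3, and the groups of Elane overlap within each set.

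Secreted and cytosolic products had the largest median difference of the roles, 0.97, and it was 0.38 without Atxn1l knockout 1. S100a8, a calcium-binding subunit of calprotectin, had 11.10, 8.79, 8.58 and 8.46 in the knockouts and 8.36, 8.97, 7.74 and 7.85 in the wild types. Knockout 1 stood alone at the top, and wild type 2 lay above the other 3 knockouts. The difference was 1.00 (SE 0.54, limma adjusted p = 0.658), and 0.38 without knockout 1. S100a9, its partner, had 0.97 and 0.45.

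Retnlg had 11.37, 9.62, 9.03 and 8.72 in Atxn1l knockouts and 8.77, 9.42, 8.20 and 8.11 in wild types, with overlapping groups and a difference of 1.06, or 0.50 without knockout 1. The stefins Stfa1, Stfa2 and Stfa3, inhibitors of cysteine proteases, lie in a cluster of like genes. Their promoters were 79.3% to 81.0% identical in pairwise alignment. Whether the probes separate such near copies is not known here, so the values of the 3 genes are uncertain as single-gene values. Stfa2 had 11.02, 9.54, 9.12 and 8.92 against 8.82, 9.25, 8.01 and 8.17, and Stfa3 10.02, 8.03, 7.83 and 7.85 against 7.33, 8.08, 6.99 and 6.69. In both, wild type 2 reached into the range of the knockouts. Differences were 1.07 for Stfa1, 1.09 for Stfa2 and 1.16 for Stfa3, and without knockout 1 0.71, 0.63 and 0.63.

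The remaining products of this role differed by 0.38 (Alox5ap, which presents arachidonate to 5-lipoxygenase), 0.22 (Il1rn, the interleukin-1 receptor antagonist), 0.17 (Padi4, which citrullinates histones), 0.08 (Anxa1, annexin A1) and 0.01 (Lyz2, lysozyme, which macrophages also make). Without knockout 1 Alox5ap had 0.24 and the other 4 lay between -0.06 and 0.07.

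Among the surface receptors Ly6g had the largest difference. Its levels were 10.07, 7.55, 7.42 and 7.09 in Atxn1l knockouts and 6.61, 7.30, 6.34 and 6.49 in wild types. Knockout 1 stood far above the rest, and wild type 2 lay above knockout 4. The difference was 1.35 (SE 0.56, limma adjusted p = 0.556), and 0.67 without knockout 1. Cxcr2 had 9.94, 8.67, 8.30 and 8.43 against 8.32, 8.72, 8.03 and 8.06, overlapping groups that differed by 0.55, and by 0.18 without knockout 1.

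Trem3, an activating receptor of myeloid cells, had the smallest p of all members. Its levels were 9.22, 8.31, 8.72 and 8.80 in the knockouts and 7.96, 7.88, 8.09 and 8.13 in the wild types, so the groups did not overlap and knockout 1 was less of an exception. The difference was 0.75 (SE 0.16, limma adjusted p = 0.251), with 0.60 without knockout 1. Without knockout 2 it passed, at 0.90 (limma adjusted p = 0.0442). Clec4e, the lectin Mincle that senses fungal and mycobacterial glycolipids, had 9.27, 6.83, 8.17 and 8.13 against 7.33, 7.23, 7.14 and 7.45. Here knockout 2 was the lowest array of the set. Its difference of 0.81 was 0.42 without knockout 1 and 1.23 without knockout 2. Clec4d, its partner, had 9.54, 7.35, 7.66 and 7.57 against 7.23, 7.25 and 7.43 on wild types 1, 3 and 4, while wild type 2 lay above knockouts 2 to 4. Its difference of 0.55 was 0.05 without knockout 1.

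The growth factor receptor Csf3r differed by 0.27 and the decoy receptor Il1r2 by 0.31. The amplifier of inflammation Trem1 had 0.35, the formyl peptide receptors Fpr1 and Fpr2 had 0.45 and 0.37, and the selectin ligand Selplg 0.37. Without knockout 1 these were 0.03, 0.07, 0.02, 0.22, 0.17 and 0.26. Fpr2 had 0.56 without knockout 2. Mmp1a differed by -0.09, with 5.08, 4.98, 5.01 and 5.16 against 5.12, 5.26, 5.15 and 5.07.

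**Figure D4:**
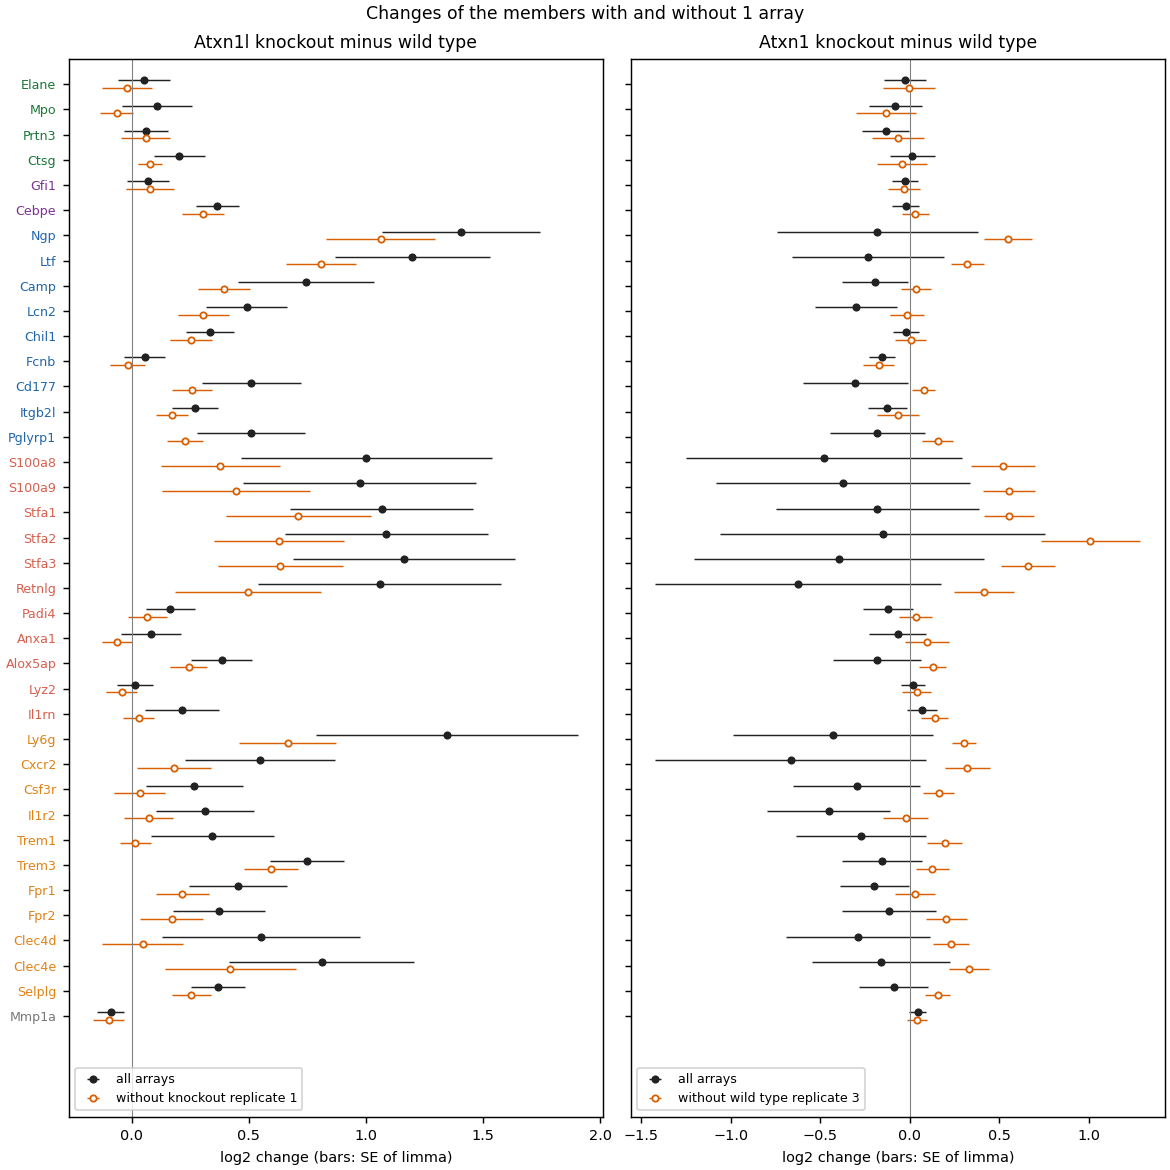
Log2 difference, knockout minus wild type, of the 38 members with all arrays (black) and without the array on which their mean was highest (orange; Atxn1l knockout 1 or Atxn1 wild type 3), with SE of limma as bars. In Atxn1l knockouts most values shrink toward 0, Ngp from 1.41 to 1.06 and Ly6g from 1.35 to 0.67, and in Atxn1 knockouts most move from below to above 0.

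Both groups of the Atxn1l set held both Xist classes, and the members were compared within each. Among arrays with high Xist, all 3 knockouts lay above both wild types for 21 of 38 members, against 11.8% of all probe sets, and none lay below, against 15.4%. The median difference there was 0.28. Ngp had a mean of 10.82 against 9.32 and Stfa1 11.90 against 10.65. Among arrays with low Xist, knockout 1 lay above both wild types for 36 of 38, against 36.7% of all probe sets, and below both for 1, against 31.3%. Knockout 1 had been picked for the highest mean of these members, so the count of 36 was largely built in. With the Xist level as a covariate, Ngp passed limma's test at 1.70 (adjusted p = 0.00182) and Stfa1 at 1.39 (adjusted p = 0.0377). Without the covariate neither passed, and the low class holds 1 knockout only.

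In lungs without Atxn1, none of the 38 members passed, nor did any of the 21212 probe sets (0%, smallest limma adjusted p = 0.999886). At an unadjusted p under 0.05 no member was higher or lower, against 0.75% and 0.467% of all probe sets. No member had all knockouts above all wild types, against 2.85%. The difference was above 0 in 4 of 38 members, against 47.3% of all probe sets, and the median was -0.17 against 0.00. This sign rested on 1 array. Without Atxn1 wild type replicate 3, 29 of 38 were above 0, against 44.6% of all probe sets, and the median was 0.13. Without wild type 1 it was -0.33 and without wild type 2 -0.34. Wild type 3 was singled out because the mean of the members was highest on it, so a shift upward without it was partly built in. The share of all probe sets involves no such choice.

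S100a8 had 9.59, 9.75 and 10.21 on Atxn1 knockouts 1 to 3 and 9.35, 9.32 and 12.33 on their wild types. The 3 knockouts lay between wild types 1 and 2 below and wild type 3 above. The difference was -0.48 (SE 0.77, limma adjusted p = 0.999886), and 0.52 without wild type 3. Cxcr2 had 8.01, 8.29 and 8.35 against 7.79, 8.01 and 10.86, a difference of -0.67, and 0.32 without wild type 3. Ngp had 10.21, 10.13 and 10.47 against 9.87, 9.57 and 11.91, a difference of -0.18, and 0.55 without wild type 3. Stfa2 had 9.08, 9.05 and 9.85 against 8.06, 8.57 and 11.79, a difference of -0.15, and 1.01 without wild type 3. These genes share 1 order, with wild type 3 at the top and the other wild types at the bottom or level with the lowest knockout.

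The same order was seen in further members. Ly6g had 7.35, 7.22 and 7.34 against 7.04, 6.96 and 9.20, Retnlg 9.15, 9.07 and 9.63 against 8.91, 8.84 and 11.98, and Ltf 9.32, 9.24 and 9.45 against 9.11, 8.92 and 10.67. Clec4e had 8.38, 8.69 and 8.70 against 8.26, 8.25 and 9.73. In each, wild type 3 lay above and the other wild types below all knockouts. Stfa3 had 8.15, 8.04 and 8.52 against 7.48, 7.67 and 10.74, and Pglyrp1 10.03, 10.26 and 10.22 against 10.01, 10.02 and 11.03, in the same order. Camp had 8.50, 8.55 and 8.59 against 8.63, 8.40 and 9.19, and Clec4d 8.11, 8.40 and 8.34 against 8.01, 8.10 and 9.61. For Camp, wild type 1 also lay above the knockouts. Without wild type 3 the knockouts lay above both remaining wild types for 16 of 38 members, against 5.7% of all probe sets, and below both for 1, Fcnb, against 5.39%. No member then passed limma's test, as no probe set did, and 10 had an unadjusted p under 0.05 and a higher level, against 0.806% of all probe sets. Because wild type 3 was set aside for its high levels of these same members, the counts of 16 and 10 are partly set by that choice.

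Primary granule genes had another order. Elane had 8.15, 8.05 and 8.09 in Atxn1 knockouts and 8.34, 7.85 and 8.16 in wild types, and Mpo 7.77, 7.84 and 7.73 against 8.21, 7.61 and 7.75. For both the highest and the lowest wild type were replicates 1 and 2, and the knockouts lay between them. Their differences were -0.03 and -0.08. Prtn3 had 7.96, 8.24 and 8.12 against 8.38, 7.95 and 8.38, and Ctsg 7.12, 7.40 and 7.08 against 7.41, 7.07 and 7.07, with overlapping groups in both. Mmp1a lay between 5.80 and 5.88 on all 6 arrays. Cebpe differed by -0.02 and Gfi1 by -0.03. Fcnb was the 1 member with all knockouts below all wild types, as were 1.9% of all probe sets, with 8.48, 8.52 and 8.46 against 8.78, 8.53 and 8.60. Lcn2 differed by -0.30 and Il1r2 by -0.45, and without wild type 3 by -0.01 and -0.02.

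Among arrays with high Xist in this set, both knockouts lay below the 1 wild type, replicate 3, for 32 of 38 members, against 29% of all probe sets, and above it for 3, against 38%. Wild type 3 had been picked for the highest mean of these members, so the count of 32 was largely built in. Among those with low Xist, the 1 knockout lay above both wild types for 17 of 38, against 20.1% of all probe sets, and below both for 5, against 22.5%. The median difference was -0.72 in the first class and 0.03 in the second. With 1 array on 1 side, the class and the single array cannot be told apart.

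Whether the knockouts differed from each other was tested as the contrast of both effects over all 14 arrays. None of the 38 members passed, against 0.00943% of all probe sets, 2 in number (limma adjusted p = 0.999553 for every member). At an unadjusted p under 0.05, 8 members had a higher Atxn1l effect, against 1.74% of all probe sets, and none a lower one, against 1.5%. Trem3 had a difference of effects of 0.90 (SE 0.29), Cebpe of 0.39 (SE 0.13), Ngp of 1.59 (SE 0.69) and Ltf of 1.43 (SE 0.59). Without Atxn1l knockout 1 and Atxn1 wild type 3 they were 0.47, 0.27, 0.52 and 0.49, and for S100a8 the difference went from 1.48 to -0.14. The median over the members was 0.63 with all arrays and 0.09 without these, with 36 and 24 of 38 above 0, against 53.5% and 54.9% of all probe sets. Without these arrays none passed, against 0.00471% of all probe sets, 3 had an unadjusted p under 0.05 and a higher Atxn1l effect, against 1.37%, and none a lower one, against 1.55%.

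Other genes listed for the neutrophil, chosen for their known roles but with earlier results known, were read in the same way. Of 29 measured effector genes none passed limma's adjusted test in either knockout, and 19 and 1 (Hdc, lower) had an unadjusted p under 0.05, against 8.5% and 1.22% of all probe sets. In the Atxn1l knockout the median was 0.40, and in 10 of 29 all knockouts lay above all wild types, against 2.76% of all probe sets. These included Mmp8 at 1.34, or 0.87 without knockout 1, Olfm4, a granule glycoprotein of a neutrophil subset, at 0.74, and Itgam, the integrin CD11b, at 0.83. Ifitm6, also among them, had 0.95. This order of the arrays was not particular to neutrophil genes, as 8 of 14 macrophage genes showed it too. With overlapping groups, Fcgr4, an activating Fc receptor, had 0.52 and Cybb, the catalytic subunit of the NADPH oxidase, 0.43. Mmp9 had 0.74, or 0.37 without knockout 1. In the Atxn1 knockout the median was -0.09, and 0.13 without wild type 3, and Mmp8 had -0.37 and 0.67.

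Growth factors, chemoattractants and adhesion molecules that act on neutrophils had a median of 0.09 in the Atxn1l and -0.01 in the Atxn1 knockout over 16 genes. None passed limma's test, and 2 of 16 and 0 had an unadjusted p under 0.05, against 8.5% and 1.22% of all probe sets. Here the arrays with high neutrophil genes parted. On Atxn1l knockout 1 Il1a stood 2.16 above the median of the other arrays, Cxcl2, a ligand of Cxcr2, 1.71 and Il1b 1.19. On Atxn1 wild type 3 the values were 0.24, 0.25 and 1.33. Csf3, the growth factor of granulocytes, had -0.03 and 0.03, and Cxcl1 -0.01 and -0.06. Tnf differed by 0.39, Icam1 by 0.14, Cxcl5 by 0.25 and Selp by 0.14 between Atxn1l knockouts and wild types. Without knockout 1 Tnf had 0.23 and Cxcl5 0.15, and without knockout 4 Selp had 0.22. Of 10 transcription factors listed for granulocyte development none passed limma's test, and 4 and 0 had an unadjusted p under 0.05, against the same shares. Their medians were 0.06 and 0.02. In the Atxn1l knockout 5 were above 0 and 5 below, against 51.3% of all probe sets above 0. The 5 below were Egr1 (-0.48, the largest change of the list), Lef1 (-0.11), Cebpa (-0.06), Klf5 (-0.01) and Cebpd (-0.0009). Irf8 had 0.28, Spi1, which encodes PU.1, 0.39, Runx1 0.20 and Cebpb 0.11 in the Atxn1l knockout, and in these 4 all knockouts lay above all wild types, against 2.76% of all probe sets. Without knockout 1 Spi1 had 0.26 and Runx1 0.13.

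Markers of other cell types moved with some of these arrays. Of 14 macrophage genes, 11 were highest on Atxn1l knockout 1 and 6 on Atxn1 wild type 3, against 20.2% and 12% of all probe sets. Their mean was 9.02 to 9.49 in Atxn1l knockouts and 8.66 to 8.79 in wild types, and 9.49 to 9.72 in Atxn1 knockouts and 9.37 to 9.77 in wild types. In the Atxn1l knockout the difference was above 0 in 10 of 14, against 51.3% of all probe sets. The 4 below 0 were Ear2 (-0.24), Pparg (-0.06), Siglecf (-0.05) and Fabp1 (-0.0005). In 8 of 14 all knockouts lay above all wild types, against 2.76% of all probe sets. Chil3 and Msr1 rose (1.46 and 0.69, limma adjusted p = 0.0210 and 0.0197). Both calls were lost without knockout 4 or wild type 1, 2 or 3, and that of Msr1 also without knockout 3, at limma adjusted p of up to 0.113 for Chil3 and 0.0930 for Msr1. Of 7 platelet genes, 6 and 3 were highest on these arrays, against 20.2% and 12% of all probe sets. Ppbp stood 1.16 and 0.27 and Pf4 0.96 and 0.35 above the median of the others. The platelet means were 8.75 to 9.36 and 8.66 to 8.82 in Atxn1l knockouts and wild types, and 9.68 to 9.80 and 9.53 to 9.84 in the Atxn1 set. Their part in the results was not tested.

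Of 8 monocyte and dendritic cell genes, 3 were highest on each of these arrays, against 20.2% and 12% of all probe sets. Cd209a, a lectin of dendritic cells, fell by 0.58 in the Atxn1l knockout (limma adjusted p = 0.0253), a call lost without knockout 3 or 4 or wild type 2 or 3 (limma adjusted p of 0.0956 or above). It was the only 1 of the 8 that fell, and the other 7 were above 0, against 51.3% of all probe sets. In 3 of 8 all Atxn1l knockouts lay above all wild types, against 2.76% of all probe sets. These were Ms4a6c (0.58), Xcr1 (0.47) and Cx3cr1 (0.30), and none of them passed limma's test. The monocyte and dendritic means were 8.39 to 8.60 in Atxn1l knockouts and 8.20 to 8.36 in their wild types, and 8.84 to 8.99 and 8.84 to 9.32 in the Atxn1 set. Marrow progenitor genes such as Kit, Cd34 and Myb, 9 in number, kept a mean of 9.81 to 9.91 on all Atxn1l arrays and 10.50 to 10.59 on all Atxn1 arrays. Of 12 bone and cartilage genes, none was highest on either array, with means of 7.51 to 7.75 and 8.34 to 8.59. Of 9 erythroid genes 2 and 0 were highest there, of 12 eosinophil, basophil and mast cell genes 3 and 0, and of 14 T, NK and B cell genes 2 and 0. The counts of 2, 3 and 2 lie near the 20.2% of all probe sets highest on Atxn1l knockout 1 and are not read as results about those cells. Erythroid means were 8.90 to 9.04 and 9.52 to 9.88, the lowest on Atxn1 wild type 3. Eosinophil, basophil and mast cell means were 6.78 to 6.91 and 7.69 to 7.87, and T, NK and B cell means at most 7.81 and 8.39. The array scale has no zero, so no marker can be called absent.

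**Figure D5:**
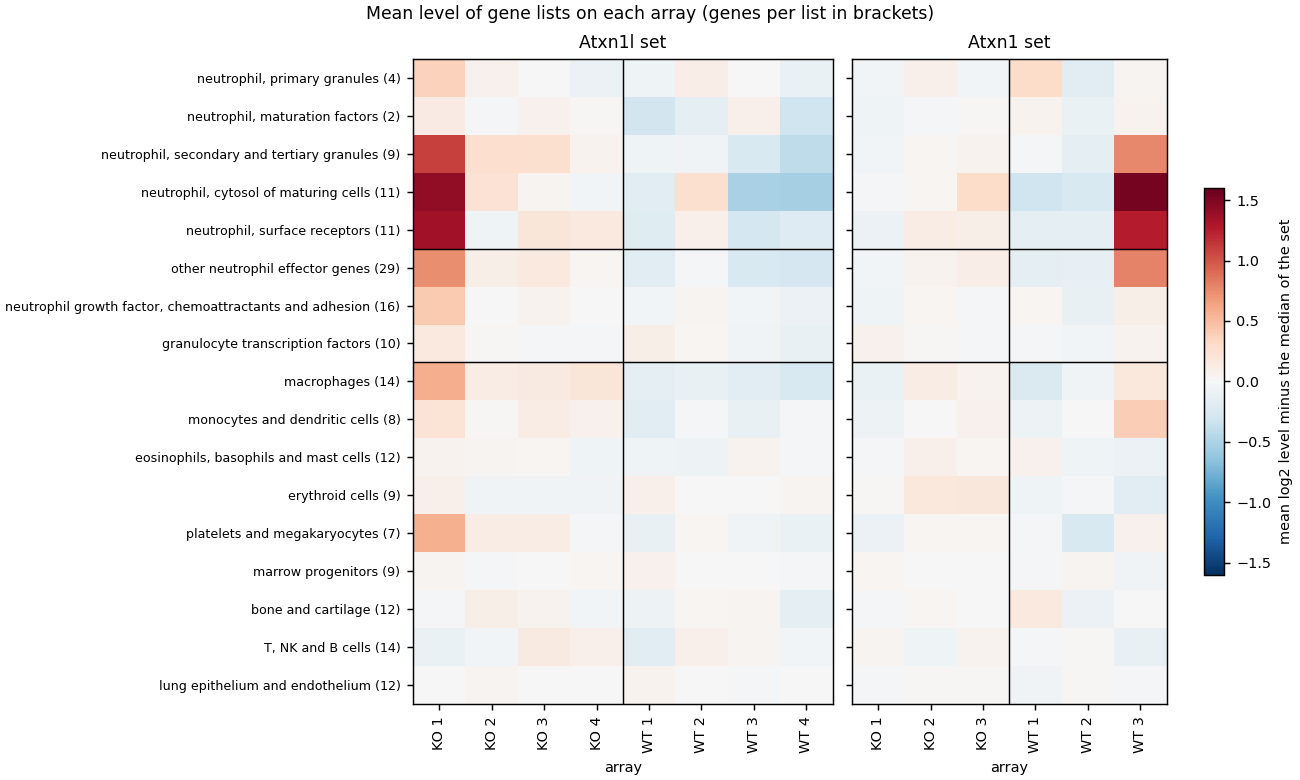
Mean log2 level of each gene list on each array minus the median of its set, with the number of measured genes in brackets, neutrophil roles on top, other neutrophil-related lists in the middle and markers of other cells below. On Atxn1l knockout 1 and Atxn1 wild type 3 the secondary granule, cytosol, surface and other effector lists are the darkest red. Macrophage and platelet lists are red mainly on Atxn1l knockout 1, and progenitor, bone and lung lists stay pale.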

How the data were processed

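The authors deposited log2 values: per the series' design text, RMA was run separately on the Atxn1l and Atxn1 sets. The submitters' processing notes name RMA and limma. Which version of the probe set annotation was used is not stated in what was read here. Of 18786 probe sets with 1 symbol in the platform table, 18743 carried the Entrez number in their identifier, so genes were matched by it to RefSeq (GRCm38.p6). Fpr1 was named this way only.

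Knockouts were set against the wild types of the same set by limma 3.58.1 in R 4.3.3 (lmFit, eBayes, two-sided), with Benjamini-Hochberg adjustment over all 21212 probe sets. The difference between knockouts was a contrast over 14 arrays with 4 group means. The steps were tested on simulated data. Members and gene lists were chosen with earlier results of these data known. Of 198 list memberships 190 were measured.

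Per-array values are given for up to 4 members of each role by the largest range over arrays, with Trem3 and Fcnb chosen after their values were seen. From other lists, up to 4 genes of smallest p and Mmp8 and Mmp9 were named. Others (Itgam, Il1a, Il1b, Cxcl1, Cxcl2, Csf3 and genes named as below 0) were chosen after their values were seen. Genes most like the members are the 10 highest by the lower excess. Comparison within Xist classes was chosen after seeing the data. Alternatives were a replicate block, array weights, another eBayes prior, a filter on dim probe sets, other scalings, an Xist covariate and leaving out each array. Precision is bounded by the small number of arrays. The p-values measure the spread between these samples.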

Additional observations from a re-analysis of the deposited data

Results flagged for a closer look

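Within the Atxn1l knockouts, replicate 1 lay apart from the other 3 by Dixon's criterion for 10 members: Ctsg (6.64), Camp (9.77), Cd177 (9.02), S100a8 (11.10), Stfa3 (10.02), Anxa1 (11.08), Ly6g (10.07), Csf3r (9.38), Trem1 (8.88) and Clec4d (9.54). Within the wild types of that set, replicate 2 lay apart for Elane (7.16). In all, 76 groups of 4 arrays were examined, and chance marks about 1 group in 20 if an array is not picked beforehand. Replicate 1 had been picked for the highest mean of these members, which move together on single arrays. The 10 are thus not separate results, and that rate is no measure for them. Groups of 3 were not examined.

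For 15 members every Atxn1l knockout lay above the mean of its wild types and every Atxn1 knockout below that of its own. The share of all probe sets with this pattern was not taken, and the members move together on single arrays. The count is thus not read as a result about the members. The difference between the effects was 1.43 for Ltf, 0.94 for Camp, 0.79 for Lcn2, 0.81 for Cd177, 0.40 for Itgb2l, 0.69 for Pglyrp1, 1.48 for S100a8, 1.34 for S100a9, 1.56 for Stfa3, 1.68 for Retnlg, 0.29 for Padi4, 0.57 for Alox5ap, 1.77 for Ly6g, 1.21 for Cxcr2 and 0.46 for Selplg. None passed limma's test of that difference (adjusted p = 0.999553 for each). The mean of the Atxn1 wild types holds replicate 3, on which 14 of these 15 genes were highest. The exception was Itgb2l, highest on wild type 1.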

How the results depend on the processing

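Probe sets past the threshold in the Atxn1l comparison numbered 9, and 2 with the replicate number as a block, 3 without dim probe sets (where 30 of 38 members remained) and 2 to 25 without 1 array. In the Atxn1 comparison array weights called 1, against 0, and 0 passed without any 1 array. The median of the members there was -0.70 with array weights, -0.35 with the Xist covariate and between -0.34 and 0.13 without 1 array. In the Atxn1l set it was 0.22 to 0.50 without 1 array. With the replicate block the number of calls thus moved by more than 1.5 times. For the difference between the knockouts 4 passed with array weights, against 2, with a member median of 1.11 against 0.63, and 1 to 2 without 1 array. Without both Atxn1l knockout 1 and Atxn1 wild type 3, chosen after seeing the data, 1 passed.

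Among members the calls that appeared were Ngp and Stfa1 with the Xist covariate and Trem3 without Atxn1l knockout 2. No member passed with the replicate block, and Msr1 and Cd209a lost their calls with it (limma adjusted p = 0.0880 and 0.0925). Deviations of same-numbered arrays correlated at 0.09, 0.04, 0.23 and 0.38 in the Atxn1l set and at 0.00, -0.42 and 0.42 in the Atxn1 set. Among the arrays of the other genotype, 5 of 8 and 2 of 6 arrays were closest to their own number. Whether same-numbered arrays are the pairs of the design text cannot be told from these values. Other scalings moved the median of all probe sets by less than 0.1.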
